A study of Homo sapiens with 9 samples.

Results

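The genes described here are 10 genes of cellular iron handling, chosen by name from the deposited table: the ferritin chains FTL and FTH1, the transferrin receptor TFRC, the transporters SLC11A2 and SLC40A1, the reductase STEAP3, the ferritin cargo receptor NCOA4, the iron chaperone PCBP1, and the iron regulatory proteins ACO1 and IREB2. They are 10 of 62710 genes in the table, and each matched 1 row. Of these, 9 had a mean normalized count of at least 10 over the 9 libraries and were tested among 15230 genes that met this minimum, while SLC40A1 did not meet it.

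A375R is a human melanoma line resistant to PLX4032, an analog of the BRAF inhibitor vemurafenib, and was kept in medium containing that inhibitor. Poly(A) RNA was sequenced from 3 groups of A375R cells with 3 biological repeats each. One group was the DMSO control, one received 10 µM VHL-r for 2 h, and one received 10 µM R4VPL3-1 for 2 h. R4VPL3-1 is a PROTAC-like molecule in which an RNF4-binding moiety is joined through a linker to the VHL-recruiting moiety, and VHL-r is that recruiting moiety alone, so the comparison of both compounds at the same dose and time asks what the RNF4-binding part and linker add. All libraries came from 1 cell line, and the control libraries, titled WT without an agent, are called DMSO after the study's description of its control.

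The libraries held 26435568 to 32085626 reads assigned to genes, with a median of 28165279. Of 8 melanoma and melanocyte lineage markers, 6 had a mean of at least 10, among them SOX10, MITF, DCT, S100A1 and S100B, whereas MLANA was at 0 in every library and TYR averaged 0.35. The summed melanoma marker level was 22877.5 to 24656.9 in DMSO, 13655.7 to 17016.4 in VHL-r and 12181.6 to 14589.9 in R4VPL3-1 libraries. In that order SOX10 averaged 17547, 10199.7 and 8405, and MITF 1722, 1047 and 1011. The other expressed markers moved less, with DCT at 1347, 1261 and 1223 and S100A1 at 2154, 2103 and 1963. S100B was at 730, 677 and 642, and PMEL at 29.9, 32.5 and 29.0. Summed leukocyte markers stayed at or below 11.8, erythroid markers at or below 3.0 and endothelial markers at or below 32.6. Epithelial markers summed to between 251 and 394, mostly KRT14. Over all libraries KRT14 averaged 294.7, beside KRT5 at 17.35, EPCAM at 5.82 and CDH1 at 1.53. Hepatocyte markers summed to between 41.8 and 67.4, mostly TF at an average of 49.2, with HAMP at 0.78 and ALB at 0. The part of the marker shifts between treatments in the iron results was not tested. In bulk RNA fewer cells of a kind and less RNA per cell cannot be told apart. Replicate 3 of R4VPL3-1 stood apart from its group in HMOX1, the heme oxygenase that frees iron from heme, at 5951 against 13646 and 11465 normalized counts, so results that turn on this library are also given without it.

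Cells take up transferrin-bound iron through TFRC, reduce it with STEAP3 and move it into the cytosol through SLC11A2. Cytosolic iron is chaperoned by PCBP1 to ferritin, a shell of FTH1 heavy chains, which oxidize iron, and FTL light chains, which help to form the mineral core, and it is released again when NCOA4 delivers ferritin to lysosomes or leaves the cell through SLC40A1. When iron is scarce, ACO1 and IREB2 bind a hairpin in mRNA, the iron-responsive element, which blocks translation when it lies in a 5′ UTR and protects the mRNA from decay when it lies in the 3′ UTR of TFRC.

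The elements are shown because their place in the mRNA sets the kind of control described above. The transcripts were searched for a C, 5 bases, a loop and 5 bases that pair with the 5 before the loop. The loop was CAGTG followed by A, C or T, and G opposite T (U in RNA) counted as a pair. The search was in the strand of the mRNA, on GRCh38. The 23 bases are given 5′ to 3′ with the loop in capitals. The 5′ UTR elements were found in FTL at chr19:48965338-48965360 on the plus strand, in FTH1 at chr11:61967577-61967599 on the minus strand and in SLC40A1 at chr2:189580664-189580686 on the minus strand.
FTL: ttgcttcaaCAGTGTttggacgg
FTH1: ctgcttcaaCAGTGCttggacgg
SLC40A1: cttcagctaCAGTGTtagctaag

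The 3′ UTR of TFRC held 4 matches on the minus strand, at chr3:196050982-196051004, chr3:196050578-196050600, chr3:196050513-196050535 and chr3:196050466-196050488, given here in the order of the mRNA.
TFRC element a: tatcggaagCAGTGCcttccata
TFRC element b: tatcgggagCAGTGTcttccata
TFRC element c: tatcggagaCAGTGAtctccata
TFRC element d: tatcgggaaCAGTGTttcccata

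No match to this strict pattern was found in the canonical transcripts of the other 6 genes. This says only that these letters with this pairing are absent from them. It does not show that these genes, SLC11A2 among them, lack an iron-responsive element. The pattern was found in 146 of 12403 canonical coding transcripts of tested genes, or 1.18%, and in the 5′ UTR of 6 genes. RNA-seq measures mRNA amount, so a change in translation through the 5′ UTR elements would not appear in these values.

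FTL was the only member that passed between the compounds in the limma fit of all 9 libraries. FTL, on chromosome 19 from 48965309 to 48966879, had normalized counts of 13648, 13739 and 13539 in DMSO, of 14112, 14908 and 15134 in VHL-r, and of 21155, 19771 and 18563 in R4VPL3-1 libraries. Every R4VPL3-1 library lay above every VHL-r library, and every VHL-r library lay above every DMSO library. R4VPL3-1 exceeded VHL-r in FTL by 0.43 on the log2 scale (SE 0.046, 95% interval 0.33 to 0.52, limma adjusted p = 4.31e-06), which is 34.6%. It was higher than in DMSO by 0.54 (SE 0.046, limma adjusted p = 1.80e-08). VHL-r against DMSO gave 0.11 (95% interval 0.013 to 0.21, limma adjusted p = 0.110), which did not pass. Without replicate 3 of R4VPL3-1, FTL differed between the compounds by 0.48 (limma adjusted p = 7.29e-07).

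FTH1, the heavy chain, was the most abundant of the 10 genes per length and had smaller differences than FTL. FTH1, on chromosome 11 from 61959718 to 61967634, had 30544, 30284 and 30002 normalized counts in DMSO, 31211, 31952 and 31706 in VHL-r, and 36168, 35936 and 33469.6 in R4VPL3-1 libraries. The 3 groups did not overlap and stood in the same order as for FTL. R4VPL3-1 exceeded DMSO by 0.22 on the log2 scale (SE 0.040, limma adjusted p = 3.72e-04), or 16.2%. R4VPL3-1 against VHL-r gave 0.15 (95% interval 0.069 to 0.24, limma adjusted p = 0.0562), just outside the threshold. This call passed under 8 of 22 alternatives, among them without replicate 3 of R4VPL3-1 at 0.19 (limma adjusted p = 0.0105). On the recovered reads it passed by edgeR at 0.16 (edgeR adjusted p = 0.0320) and by DESeq2 at 0.15 (DESeq2 adjusted p = 0.0059). It did not pass under the other 14, among them without R4VPL3-1 replicate 1 (limma adjusted p = 0.316) or 2 (0.243), or with no minimum on low values (0.130). VHL-r against DMSO gave 0.063 (95% interval -0.021 to 0.15, limma adjusted p = 0.324).

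**Figure D1:**
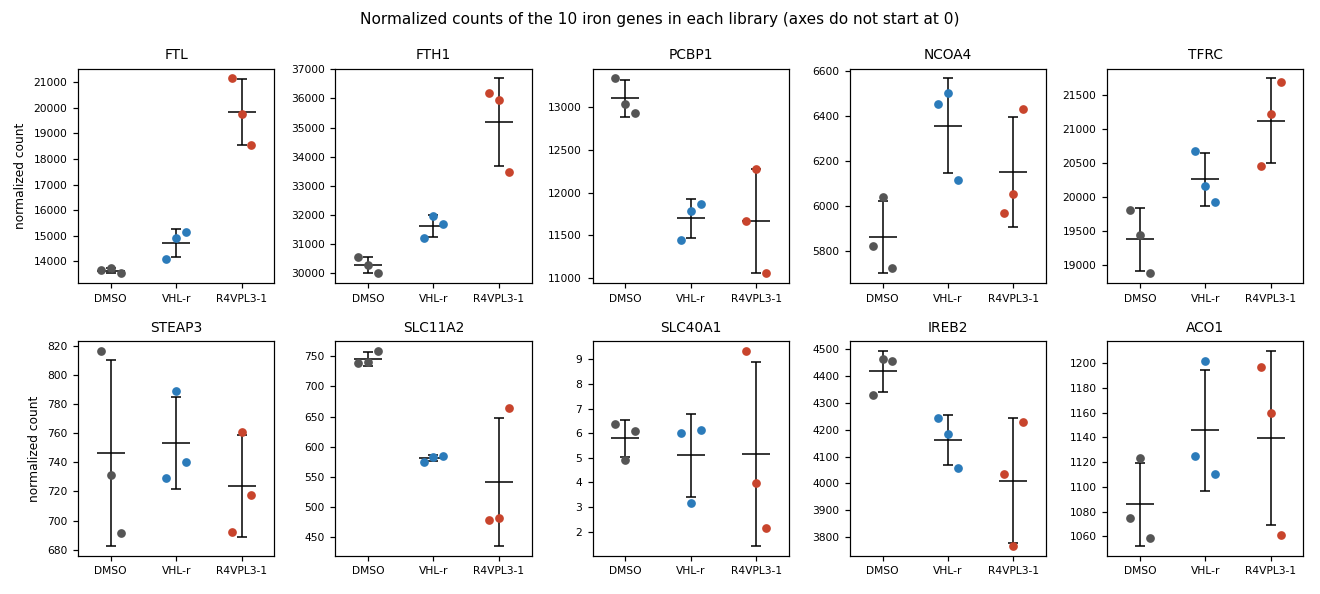
Normalized counts of the 10 iron genes, with 1 panel a gene, the 3 treatments on the x axis and the normalized count on a y axis that does not start at 0. Points are libraries (replicates 1, 2 and 3 from left to right), and bars are the mean and SD of 3 libraries. For FTL and FTH1 the 3 groups do not overlap and R4VPL3-1 is highest, but VHL-r against DMSO passed for neither gene by limma. SLC11A2 and PCBP1 are lower in both compound groups.

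The ratio of the chains per transcript length was compared as well. On a scale of counts per canonical transcript length, scaled to the same sum in each library as for TPM, FTL was at 0.617, 0.627 and 0.623 of FTH1 in DMSO, at 0.625, 0.644 and 0.659 in VHL-r, and at 0.808, 0.760 and 0.766 in R4VPL3-1 libraries. All R4VPL3-1 libraries lay above all others, while VHL-r and DMSO overlapped. The mean ratio was 0.778 ± 0.026 (SD, n = 3) in R4VPL3-1 against 0.643 ± 0.017 in VHL-r and 0.622 ± 0.0048 in DMSO. The 2-sided exact permutation test gave p = 0.1 for R4VPL3-1 against either group, the smallest p that 3 against 3 libraries allow, and p = 0.2 for VHL-r against DMSO. Leaving out each library in turn kept the log2 difference of the ratio between the compounds within 0.25 to 0.29.

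Ferritin genes have many processed pseudogenes, which could share reads with them. The table listed 25 FTH1 pseudogene rows, 8 of them above 0, which together amounted to 0.155% of the FTH1 count. The highest, FTH1P2, averaged 37.2 normalized counts. For FTL there were 16 rows, 3 of them above 0, amounting to 0.073% of FTL, with FTLP3 highest at 10.4. Of the 100-base windows of FTH1 transcripts 8.32%, and of those of FTL 3.37%, occur in another gene too, and the part of reads from them in the values was not tested. The exons of FTH1 overlap BEST1 on the other strand over 63.2% of their length, but the libraries were stranded and counted by strand.

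Of the 9 tested members, 1 passed for R4VPL3-1 against VHL-r, FTL, in the higher direction. In that comparison 1.87% of all tested genes passed, 1.14% higher and 0.729% lower. The members' median log2 difference was -0.0089, beside -0.0056 over all tested genes. Against DMSO, 6 of 9 members passed in R4VPL3-1, 3 higher (FTL, FTH1, TFRC) and 3 lower (PCBP1, SLC11A2, IREB2), where 24.9% of all genes passed, 13.1% higher and 11.8% lower. In VHL-r against DMSO 2 of 9 passed, PCBP1 and SLC11A2, both lower, where 19.8% of all genes passed, 10.3% higher and 9.51% lower. The member medians were 0.068 and 0.063, beside -0.0063 and -0.0045 over all genes. The comparisons share libraries, so their values are set side by side and were not related to each other.

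**Figure D2:**
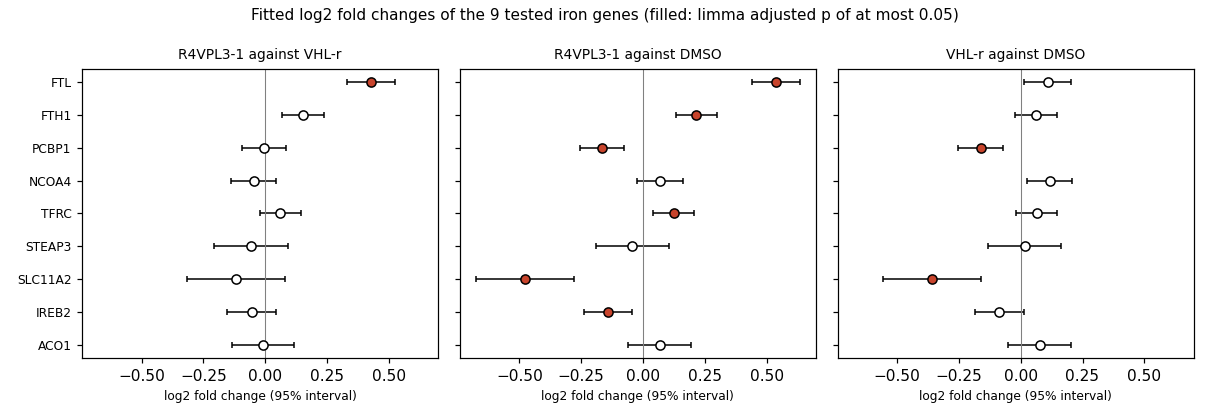
Log2 fold changes (x axis) with 95% intervals for the 9 tested iron genes (y axis) in the 3 comparisons, where filled points passed a limma adjusted p of at most 0.05. FTL is the filled point of R4VPL3-1 against VHL-r, and SLC11A2 has the largest decrease against DMSO in both compound groups.

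Among the genes of iron delivery, SLC11A2 was lower and TFRC slightly higher after R4VPL3-1. SLC11A2, the divalent metal transporter, on chromosome 12 from 50979401 to 51028566, had 738, 739.9 and 759 normalized counts in DMSO, 575, 583 and 585 in VHL-r, and 479, 482 and 664 in R4VPL3-1 libraries. Every compound-treated library lay below every DMSO library, and replicate 3 of R4VPL3-1 lay above all VHL-r libraries while the other two lay below them. SLC11A2 fell by 0.48 on the log2 scale in R4VPL3-1 (SE 0.095, limma adjusted p = 6.75e-04) and by 0.36 in VHL-r (SE 0.095, limma adjusted p = 0.00945), each against DMSO. Between the compounds the difference was -0.12 (95% interval -0.32 to 0.079, limma adjusted p = 0.814), but -0.27 (limma adjusted p = 0.0466) without replicate 3 of R4VPL3-1.

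TFRC, on chromosome 3 from 196012511 to 196082153, had 19814, 19442 and 18885 normalized counts in DMSO, 20686, 20169 and 19928 in VHL-r, and 20465, 21216 and 21694 in R4VPL3-1 libraries. Both compound groups lay above DMSO, and they overlapped each other. The increase in R4VPL3-1 against DMSO was 0.12 on the log2 scale (SE 0.040, limma adjusted p = 0.0256), or 8.99%. It did not pass when DMSO replicate 2 (limma adjusted p = 0.0739) or 3 (0.0989), or R4VPL3-1 replicate 2 (0.0739) or 3 (0.0791), was left out, or with no minimum on low values (0.0614). TFRC gave 0.064 in VHL-r against DMSO (limma adjusted p = 0.303) and 0.060 between the compounds (95% interval -0.023 to 0.14, limma adjusted p = 0.719).

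STEAP3, the endosomal ferrireductase, ranged from 692 to 816 normalized counts in DMSO, from 729.5 to 789 in VHL-r and from 692 to 761 in R4VPL3-1 libraries, and its groups overlapped throughout. Between the compounds it differed by -0.058 (95% interval -0.21 to 0.092, limma adjusted p = 0.901). SLC40A1, the iron exporter ferroportin, was near the detection limit, at 6.4, 4.9 and 6.1 normalized counts in DMSO, 6.0, 3.2 and 6.2 in VHL-r, and 9.3, 4.0 and 2.1 in R4VPL3-1 libraries. When tested without the minimum among 30304 genes, SLC40A1 gave -0.12 between the compounds with a 95% interval of -1.21 to 0.97 (limma adjusted p = 1.000). A 2-fold decrease was thus not excluded.

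PCBP1, the chaperone that delivers iron to ferritin and also binds RNA, was lower after both compounds. PCBP1, on chromosome 2 from 70087477 to 70089203, had 13333, 13036 and 12924 normalized counts in DMSO, 11443, 11790.4 and 11871 in VHL-r, and 11674, 12274 and 11059 in R4VPL3-1 libraries. All 6 compound-treated libraries lay below the 3 DMSO libraries. PCBP1 fell by 0.17 on the log2 scale in R4VPL3-1 (SE 0.043, limma adjusted p = 0.00580) and by 0.16 in VHL-r (SE 0.043, limma adjusted p = 0.00917). The compounds differed by -0.0051 (95% interval -0.094 to 0.084, limma adjusted p = 0.992), a sign that turned when libraries were rescaled by TMM factors or to the upper quartile. The antisense gene PCBP1-AS1 covers 73.2% of its exon length on the other strand.

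NCOA4, the receptor for ferritin breakdown, had 5822, 6039 and 5724 normalized counts in DMSO, 6452, 6504 and 6117 in VHL-r, and 5970.3, 6055 and 6431 in R4VPL3-1 libraries. VHL-r lay above DMSO without overlap, and R4VPL3-1 overlapped both. VHL-r against DMSO gave 0.12 on the log2 scale (95% interval 0.025 to 0.21, limma adjusted p = 0.0705), R4VPL3-1 against DMSO 0.069 (limma adjusted p = 0.285), and R4VPL3-1 against VHL-r -0.048 (95% interval -0.14 to 0.045, limma adjusted p = 0.854). The first of these passed without VHL-r replicate 3 (limma adjusted p = 0.0389) and without R4VPL3-1 replicate 3 (0.0485).

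Of the iron regulatory proteins, IREB2 was slightly lower after R4VPL3-1, while ACO1 passed in no comparison. IREB2, which is controlled by its own degradation, had 4331, 4465 and 4458 normalized counts in DMSO, 4243, 4186 and 4059 in VHL-r, and 4037, 3767 and 4229 in R4VPL3-1 libraries. Both compound groups lay below DMSO and overlapped each other. IREB2 fell by 0.14 on the log2 scale in R4VPL3-1 against DMSO (SE 0.047, limma adjusted p = 0.0320), a call lost under 7 of 21 alternatives, among them upper-quartile scaling (adjusted p = 0.0668) and the omission of DMSO replicate 2 (0.106) or 3 (0.0836), VHL-r replicate 2 (0.0501), or R4VPL3-1 replicate 1 (0.0652) or 2 (0.187). VHL-r against DMSO gave -0.086 (limma adjusted p = 0.232), and the compounds differed by -0.055 (95% interval -0.15 to 0.043, limma adjusted p = 0.826).

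ACO1, the cytosolic aconitase that binds the element once it loses its iron-sulfur cluster, ranged from 1059 to 1124 normalized counts in DMSO, from 1110.2 to 1202 in VHL-r and from 1061 to 1197 in R4VPL3-1 libraries, with overlap throughout. It gave 0.068 (limma adjusted p = 0.469) and 0.077 (limma adjusted p = 0.441) in R4VPL3-1 and VHL-r against DMSO. The compounds differed by -0.0089 (95% interval -0.14 to 0.12, limma adjusted p = 0.988), with the sign turned under upper-quartile scaling.

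Per transcript length, the order of levels in DMSO was FTH1 (2017 ± 8.4 on the TPM-like scale, SD, n = 3), FTL (1256 ± 14.4), PCBP1 (608 ± 2.4), TFRC (309.9 ± 3.6), NCOA4 (136 ± 3.8), IREB2 (56.0 ± 1.6), SLC11A2 (14.5 ± 0.39), STEAP3 (14.0 ± 1.0), ACO1 (11.7 ± 0.37) and SLC40A1 (0.139 ± 0.018). SLC11A2 and STEAP3 were closer than their spread, and the other neighbours in this order differed by more than the sum of their SDs. In R4VPL3-1 libraries SLC11A2 averaged 10.5 ± 2.0, STEAP3 13.6 ± 0.55 and ACO1 12.3 ± 0.81, so SLC11A2 and ACO1 did not differ beyond their spread. Without replicate 3 of R4VPL3-1 these means were 9.34, 13.7 and 12.7 on the same scale.

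**Figure D3:**
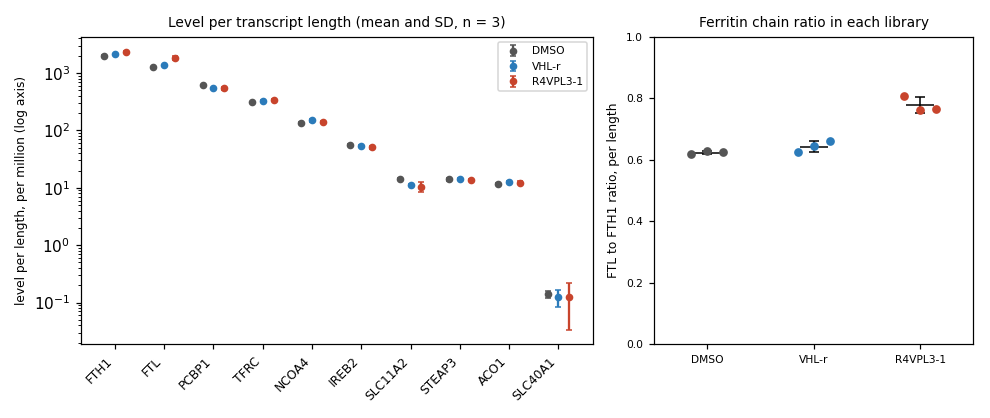
Left, level per canonical transcript length, on the TPM-like scale and a log axis, for the 10 iron genes by treatment (mean and SD of 3 libraries). Right, the FTL to FTH1 ratio on that scale in each library with the mean and SD: the R4VPL3-1 libraries sit between 0.760 and 0.808, above the other 6 libraries, which sit between 0.617 and 0.659.

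A wider list of 63 iron genes outside the 10 members was counted in the same way, and 52 of them were tested. In R4VPL3-1 against VHL-r 0 of 52 passed by limma, edgeR or DESeq2, with 0 at an unadjusted p under 0.05 by limma, 1 by edgeR and 0 by DESeq2. By limma 1.87% of all tested genes passed in that comparison, so 0 of 52 is near that share and nothing is read from it. In R4VPL3-1 against DMSO 7 passed, 6 higher and 1 lower, and in VHL-r against DMSO 7 passed, 4 higher and 3 lower. Each count is 13.5% of the tested list, beside 24.9% and 19.8% of all tested genes, and the difference in share was not tested. The list's median log2 differences were 0.0017, 0.0073 and -0.0074 in the 3 comparisons.

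In the IRP control group, FBXL5, the iron-sensing ubiquitin ligase adaptor that marks IREB2 for degradation, had 2214, 2321 and 2110.3 normalized counts in DMSO, 2051, 1985 and 1773 in VHL-r, and 1846, 1750.0 and 1927 in R4VPL3-1 libraries. Both compound groups lay below DMSO. FBXL5 fell by 0.27 on the log2 scale in R4VPL3-1 (limma adjusted p = 0.00200) and by 0.20 in VHL-r (limma adjusted p = 0.0236). HERC2, a ubiquitin ligase that acts on NCOA4 and FBXL5, was higher by 0.25 in R4VPL3-1 against DMSO (limma adjusted p = 0.00207), and gave 0.15 in VHL-r (limma adjusted p = 0.0723).

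Of 4 tested genes listed for their iron-responsive elements, 3 passed in R4VPL3-1 and 2 in VHL-r, all higher than DMSO, where 13.1% and 10.3% of all tested genes were higher, and with 4 genes nothing is read from the share. EPAS1, which encodes the hypoxia-inducible factor HIF2α, a protein that VHL targets for degradation, had 99.9, 80.7 and 80.1 normalized counts in DMSO, 146, 134 and 168 in VHL-r, and 132, 116 and 167 in R4VPL3-1 libraries. Every treated library lay above DMSO. EPAS1 was higher by 0.66 in R4VPL3-1 (limma adjusted p = 0.00277) and by 0.78 in VHL-r (limma adjusted p = 7.72e-04), and the compounds differed by -0.12 (95% interval -0.44 to 0.20, limma adjusted p = 0.904). CDC14A, a phosphatase, was higher by 0.28 in both (limma adjusted p = 0.00827 and 0.0106), and CDC42BPA, a kinase, by 0.18 in R4VPL3-1 (limma adjusted p = 0.00396).

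Among 15 tested genes of mitochondrial iron and iron-sulfur assembly, 2 passed, both higher in each compound group, a share near the 13.1% and 10.3% of all tested genes that were higher. ISCA1, a late-acting iron-sulfur assembly protein, was higher by 0.38 in R4VPL3-1 (limma adjusted p = 2.54e-05) and 0.41 in VHL-r (limma adjusted p = 1.33e-05). IBA57, which works with it, was higher by 0.43 (limma adjusted p = 2.39e-05) and 0.39 (limma adjusted p = 9.44e-05). Of 9 tested cytosolic assembly genes, CIAPIN1 passed in VHL-r, where it fell by 0.14 (limma adjusted p = 0.0333). In that comparison 9.51% of all tested genes were lower. PCBP3, a paralog of PCBP1 with 24.0 to 102 normalized counts over the libraries, fell by 0.88 in VHL-r (SE 0.27, limma adjusted p = 0.0266) and gave -0.70 in R4VPL3-1 (limma adjusted p = 0.0659). None of the 12 tested uptake and reduction genes, 2 export genes or 4 hepcidin axis genes passed against DMSO in either compound group. Of all tested genes 24.9% passed in R4VPL3-1 and 19.8% in VHL-r, and with groups this small nothing is read from the share.

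**Figure D4:**
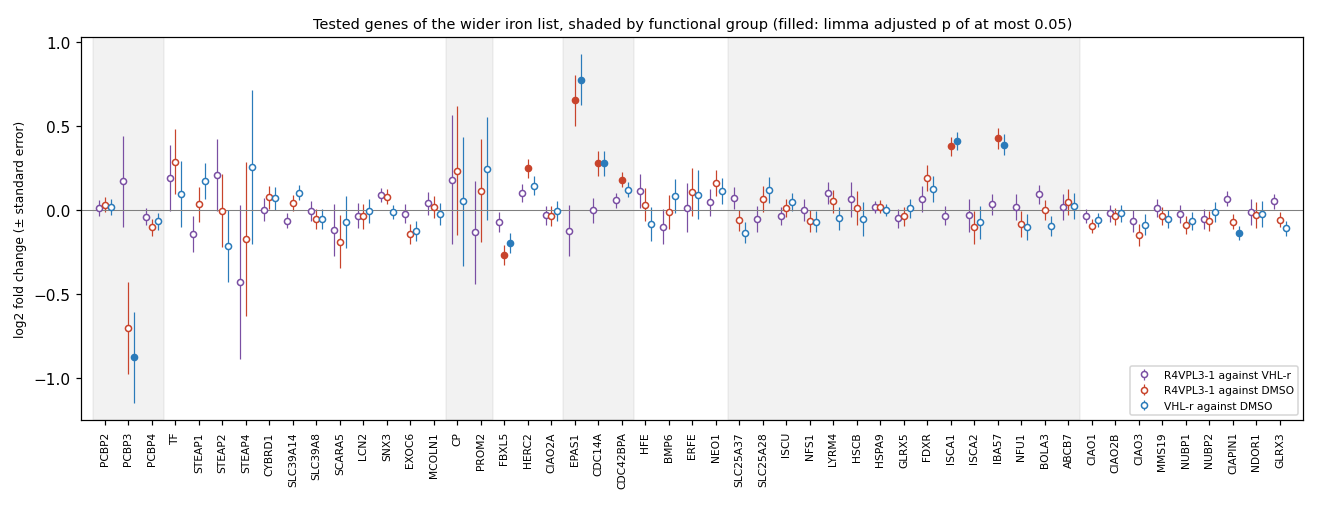
Log2 fold changes with standard errors (y axis) of 51 of the 52 tested genes of the wider iron list (x axis), grouped by function with alternating shading, in the 3 comparisons, where filled points passed a limma adjusted p of at most 0.05. No point of R4VPL3-1 against VHL-r is filled, and EPAS1, ISCA1, IBA57 and CDC14A are filled above 0 in both comparisons with DMSO.

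HMOX1, whose product yields the iron that ferritin stores, was higher by 3.88 on the log2 scale in R4VPL3-1 than in VHL-r (limma adjusted p = 3.27e-12), and gave 0.12 in VHL-r against DMSO (limma adjusted p = 0.709). NFE2L2 encodes the transcription factor NRF2, which activates ferritin genes. Its mRNA fell by 0.26 in R4VPL3-1 against DMSO (limma adjusted p = 3.65e-04). VHL-r against DMSO gave -0.14 (limma adjusted p = 0.0534), which did not pass, and the compounds differed by -0.12 (limma adjusted p = 0.326). By western blot, the paper reports a higher level of this transcription factor's protein after the PROTAC-like molecule. The mRNA values do not measure that protein. BACH1, the heme-sensing repressor of ferritin genes, gave 0.048 between the compounds (limma adjusted p = 0.908).

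RefSeq promoter windows of GRCh38.p14, which span the transcription start, were found for 9 of the 10 genes, FTH1 being the exception. They were searched on both strands for the core of the antioxidant response element, TGACNNNGC, for the core of the hypoxia response element, ACGTG, and for a pair of inverted heat shock element units, GAANNTTC. The antioxidant core occurred in PCBP1 and NCOA4 and in 13.4% of all 35116 windows, and the hypoxia core in FTL and TFRC and in 21.4% of all windows. The heat shock letters occurred in none of the windows of the 9 genes and in 6.77% of all windows. The FTL window ran from 48965059 to 48965358 on chromosome 19. Sequence outside the windows was not searched, so a missing match says nothing about elements further away. The 2 hypoxia core matches are shown with their surroundings because FTL and TFRC were among the members higher in R4VPL3-1 than in DMSO. They were thus picked by outcome, and the antioxidant matches are not shown. The match in 2 of 9 genes counts genes, whereas the 21.4% counts windows, and some genes had several windows, such as SLC11A2 with 4. The shares are thus not of like units, and no control of these genes is read from the matches. The hypoxia core matches are given 5′ to 3′ in the strand of the gene with the core in capitals, and in FTL the core lies on the opposite strand.
FTL promoter match: ccgccctagcCACGTcccctcgcag
TFRC promoter match: tcgcgagcgtACGTGcctcaggaag

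These matches describe letters in the windows and were not linked to any binding measurement.

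The 5 tested genes whose values were most like those of FTL over the 9 libraries were BAG3 (Pearson r of log2 values 0.994), DDIT3 (0.993), DUSP1 (0.992), DNAJB1 (0.992) and ANKRD37 (0.992). The 5 most like TFRC were ENSG00000259959 (0.969), BMERB1 (0.959), GRPEL1 (0.940), PHF20 (0.935) and ENSG00000264668 (0.934). The libraries share treatment groups, so the points are not independent, and no test was made. DNAJB1, a heat shock co-chaperone, averaged 6579.8 normalized counts in DMSO, 10356 in VHL-r and 48176 in R4VPL3-1 libraries, a far wider range than FTL, at 13642, 14718 and 19829.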

How the data were processed

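RNA from 9 A375R cultures, 3 for each treatment, was sequenced as stranded poly(A) libraries. According to the study's methods, the authors aligned reads to GRCh38 with STAR and counted them per gene with htseq-count. The deposited signal values are these counts divided by the DESeq2 size factor of each library (DESeq2 1.36.0 per the submitters' processing notes), with 2 decimals. Low values are whole multiples of 1 read, so reads were recovered, and 100% of values came out whole within 0.1. Depth is the sum of those reads.

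Values were tested as log2(value + 1) with limma 3.58.1 in R 4.3.3, with a trended prior and 1 factor over all 9 libraries, for genes with a mean of at least 10. Benjamini-Hochberg adjustment covered all 15230 genes, and calls needed an adjusted p of at most 0.05. Fold changes are on the log2(value + 1) scale. Alternatives used edgeR 4.0.16 and DESeq2 1.42.0 on recovered reads, other scalings, filters and pseudocounts, a replicate block and the omission of each library. The code was tested on simulated data. Named genes were the 10 members, called genes of the wider list, the highest ferritin pseudogenes, the 5 genes most like FTL and TFRC, and HMOX1, NFE2L2 and BACH1. The members and lists were chosen with earlier results of these data known. Gene models came from GENCODE, and coordinates from the deposited table. Of the wider list, 2 genes are not reported individually here.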

Additional observations from a re-analysis of the deposited data

How the results depend on the processing

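FTL kept its direction and its side of the threshold under all alternatives. For R4VPL3-1 against VHL-r, 2 members passed in place of 1 with TMM factors, upper-quartile scaling, limma's robust option, the replicate block, edgeR, DESeq2, and DESeq2 with the replicate block, and 1 to 3 when 1 library was left out (3 without R4VPL3-1 replicate 3). FTH1 was the added gene in each, with SLC11A2 as the third. Of the wider list in VHL-r against DMSO, 3 genes passed at an adjusted p of 0.01 in place of 7, and 4 to 8 when 1 library was left out (4 without DMSO replicate 1 or 2). PCBP1 between the compounds turned to 6e-04 with TMM factors, 0.0045 at the upper quartile and 0.0016 by edgeR, and ranged from -0.0423 to 0.0329 with 1 library left out. ACO1 between them turned to 7e-04 at the upper quartile and ranged from -0.0454 to 0.0416. STEAP3 against DMSO ranged from -0.0957 to 0.0238 in R4VPL3-1 and from -0.0377 to 0.0818 in VHL-r. The causes were not tested. Libraries of the same replicate number deviated with a correlation of -0.006 to 0.121 and other pairs with -0.148 to 0.098. These ranges overlap but do not show that pairing was absent. The numbers were not treated as pairs in the main fit, as in the study's single-factor model. The replicate block changed no other call of a member, and gave 8 genes in place of 7 of the wider list in R4VPL3-1 and 9 in place of 7 in VHL-r, each against DMSO. No scaling moved the median of all genes by more than 0.0177 on the log2 scale. Among the members, SLC40A1 did not meet the minimum on counts, nor did 11 genes of the wider list. Of these 11, 6 were at 0 in every library. Whether such a 0 reflects expression or the assignment of reads was not tested.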
